A study of Mus musculus with 12 samples.

Results

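Adipogenic transcription factors are the DNA-binding proteins and their partners that turn a fibroblast-like precursor into a fat cell. The genes described here are Pparg, Cebpa, Cebpb, Cebpd, Klf15, Nrip1 and Rxra, chosen by name through the gene symbols of the array annotation. They are 7 of the 19480 named genes on the array, which carried 22104 transcript clusters (the sets of probes that together measure 1 gene). Each of the 7 genes had 1 cluster, and all 7 were measured on every array.

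The cells were murine 3T3-L1 pre-adipocytes, an established embryonic fibroblast line that becomes adipocytes after a hormone cocktail. RNA was taken from differentiated cells at day 8. There were 4 treatments, each given from the start of differentiation to harvest, with 3 arrays apiece. Those were ALA plus D6D inhibitor, ALA alone, D6D inhibitor alone, and control. ALA is alpha-linolenic acid, an omega-3 fatty acid of plants, used at 50 µM, and the medium held 2% albumin stripped of fatty acids. D6D is delta-6-desaturase, the enzyme that starts the conversion of ALA into longer omega-3 fatty acids, and its inhibitor was used at 5 µM. Control cells received ethanol and DMSO. The labels state albumin only for ALA, and ethanol and DMSO only for control. Whether albumin and solvents were matched between the arms is therefore unknown for every treatment comparison, those of the inhibitor included. Every treatment had 1 array from each of passages 6, 7 and 8, the number of times the stock cells had been subcultured. All of the cells, controls included, had been through the same differentiation cocktail and were kept in insulin afterwards, and no undifferentiated cells were analysed here.

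In 3T3-L1 cells the cocktail first induces C/EBPβ and C/EBPδ, and these switch on the genes of C/EBPα and PPARγ. C/EBPα and PPARγ then maintain each other's expression and bind near most genes of the mature fat cell. PPARγ is a nuclear receptor that binds fatty acids and their derivatives, and it contacts DNA as a pair with RXRα. KLF15 is a zinc-finger factor induced during adipogenesis and by glucocorticoids, and NRIP1, also called RIP140, is a corepressor that nuclear receptors recruit in adipocytes.

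All values are log2 signals as deposited, and the levels of the members are compared only within a gene. Each p is from limma's moderated test. An adjusted p is Benjamini-Hochberg over all 22104 clusters, with 0.05 as the threshold, and the study's own threshold, an unadjusted p under 0.01, is given beside it. No member passed the adjusted threshold in any of the comparisons as planned. That threshold was met by 0% of clusters in every treatment comparison and between passages 7 and 6, by 1.91% between passages 8 and 6, and by 0.864% between passages 8 and 7. Array medians lay between 6.14 and 6.27. The ALA array of passage 7 stood apart, with correlations of 0.976 to 0.987 with the other 11 arrays, which correlated with each other at 0.989 to 0.994. Results that rest on that array are given with and without it. As a check of the cell label, markers were set against the array median, a rough comparison because probes differ in brightness. Adipocyte markers (Adipoq, Fabp4, Plin1 and others) were above the array median for all 11 genes measured, while 7 of 7 endothelial and 6 of 7 macrophage markers were below it. Preadipocyte and fibroblast markers were mostly above it too, with 2 of 11 below. Below it were also 5 of 8 muscle markers and 4 of 7 osteoblast and chondrocyte markers. In such bulk RNA, fewer differentiated cells and less RNA per cell cannot be told apart.

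**Figure D1:**
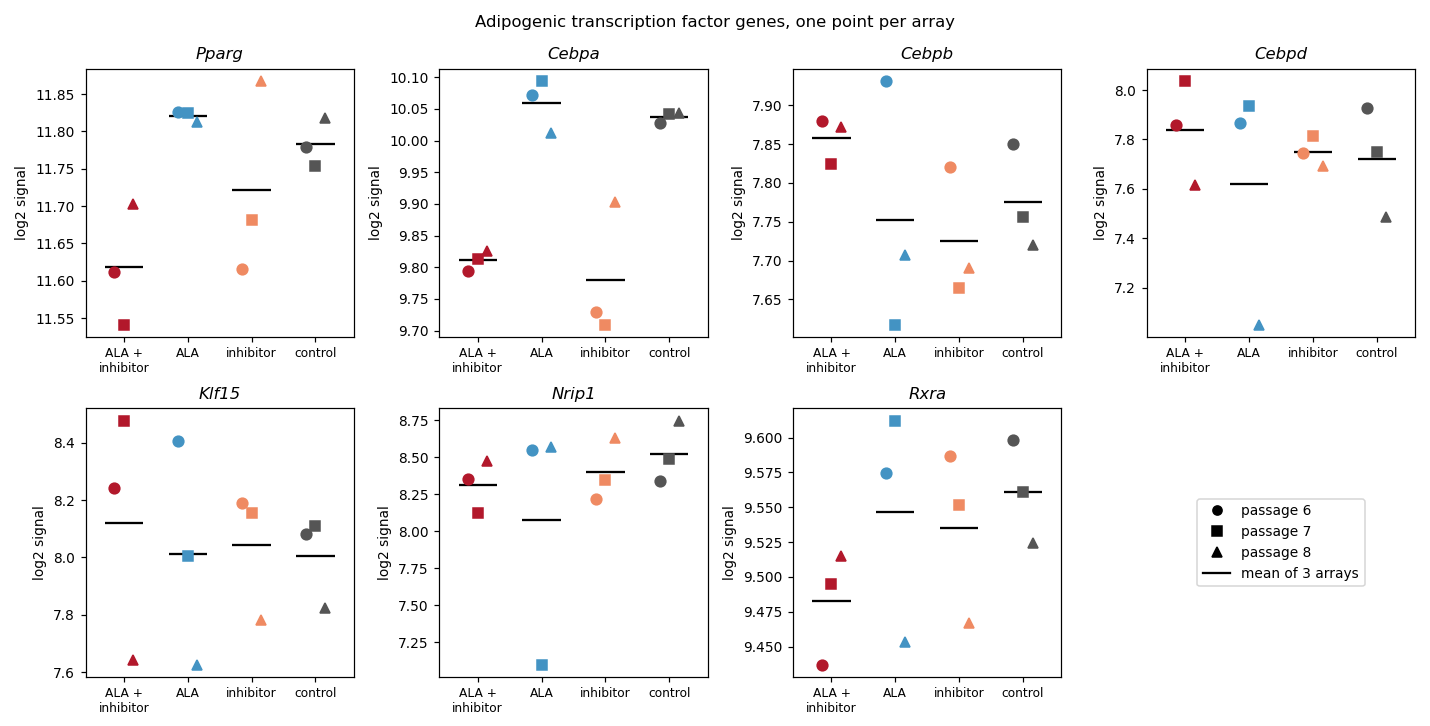
Log2 signal (vertical axis, with its own range in each panel) of the 7 genes on the 12 arrays, grouped by treatment. Each point is 1 array, its shape gives the passage, and bars are means of 3 arrays. Cebpa lies between 9.71 and 9.90 on all 6 arrays with inhibitor and between 10.01 and 10.09 on all 6 without it, while the passage 8 points of Klf15 are the lowest in every treatment.

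The arms with the D6D inhibitor were compared with their counterparts without it to ask how blocking the desaturase bears on the cells with and without added ALA. The gene that differed most steadily was Cebpa, the factor that sustains the differentiated state. Its signal was lower with the inhibitor in both settings and in all 3 passages, by 0.25 on average. Pparg was lower by a smaller amount that was larger in the presence of ALA than in its absence, but the difference between the settings was within error. None of the other 5 genes met the study's threshold with the inhibitor.

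Cebpa lies on mouse chromosome 7 (chr7:35119293-35121928, GRCm38.p6). Pparg lies on chromosome 6 (chr6:115360879-115490404). The 250 bases before a gene's start were read from RefSeq's table for GRCm38.p6, which held such windows for 6 of the 7 genes, Cebpd being the one without. For Cebpa, the gene with the steadiest inhibitor difference, the window is chr7:35119043-35119292 on the plus strand. For Pparg, which has 3 starts in the table, the window of the start farthest downstream is shown, chr6:115421816-115422065, also on the plus strand. These windows are shown because they are the ones before the 2 genes at the centre of the network. Capitals mark any of 8 short motifs searched on both strands.
Cebpa: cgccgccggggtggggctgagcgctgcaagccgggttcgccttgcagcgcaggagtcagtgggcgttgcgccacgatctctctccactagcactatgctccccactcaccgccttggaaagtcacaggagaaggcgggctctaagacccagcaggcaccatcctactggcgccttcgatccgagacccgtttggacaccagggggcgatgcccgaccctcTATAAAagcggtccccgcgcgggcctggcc
Pparg: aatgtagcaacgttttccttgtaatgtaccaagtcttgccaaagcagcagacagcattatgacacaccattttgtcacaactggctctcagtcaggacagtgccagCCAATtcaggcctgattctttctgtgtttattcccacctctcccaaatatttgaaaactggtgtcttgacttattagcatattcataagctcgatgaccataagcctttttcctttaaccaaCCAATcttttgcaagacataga
The motifs were the CCAAT box (CCAAT), the TATA box (TATAAA), the core of the cAMP response element (TGACG), an E-box (CACGTG), the GC box (GGGCGG), a C/EBP core (GCAAT), a nuclear receptor core (AGGTCA) and a glucocorticoid receptor core (AGAACA). No motif contains another, and the matches in the printed windows do not overlap. The Cebpa window held 1 match, a TATA box starting 30 bases before the start, a motif present in 12.4% of 32851 promoter windows. The Pparg window held 2 CCAAT boxes, 22 and 144 bases before the start, and 33.8% of windows have at least 1. A match is a string of letters and was not tested for binding.

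Cebpa measured 9.79, 9.81 and 9.83 in passages 6, 7 and 8 with ALA plus inhibitor, against 10.07, 10.09 and 10.01 with ALA. It measured 9.73, 9.71 and 9.90 with the inhibitor alone, against 10.03, 10.04 and 10.04 in control cells. The highest array with inhibitor was thus below the lowest without it. The means were 9.81 ± 0.02 with ALA plus inhibitor and 10.06 ± 0.04 with ALA, and 9.78 ± 0.11 with the inhibitor and 10.04 ± 0.01 in control cells (SD, n = 3 each).

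ALA plus inhibitor differed from ALA by -0.25 in Cebpa (SE 0.10, unadjusted p = 0.0263, adjusted p = 0.675). The inhibitor alone differed from control by -0.26 (SE 0.10, unadjusted p = 0.0225, adjusted p = 0.998). Without the outlying ALA array of passage 7 the value with ALA was -0.23 (unadjusted p = 0.0471). The ALA plus inhibitor arm was 0.23 below control (log2 difference -0.23, unadjusted p = 0.0396, adjusted p = 1). Groups of 3 against 3 that do not overlap are common on this array. In ALA plus inhibitor against ALA, 6.85% of all clusters were lower without overlap, and 4.97% in inhibitor against control. By the study's threshold Cebpa was not called in either, and 0.973% and 0.534% of all clusters were called lower there.

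Averaged over both settings, 6 arrays with the inhibitor were set against 6 without it. Cebpa was lower by 0.25 (log2 difference -0.25, SE 0.07, 95% interval -0.40 to -0.10), a signal of 0.839 of that without inhibitor. The unadjusted limma p was 0.00327 and the adjusted p 0.496, since no cluster passed limma's adjusted threshold (smallest adjusted p 0.321, with 1936 clusters at an unadjusted p under 0.05). An exact two-sided permutation test over the 12 arrays gave p = 0.00216, and within passages p = 0.00926, in each case the smallest that the design allows. Cebpa ranked 133 among 22104 clusters by p, so 0.597% of clusters had a smaller one. Of all clusters 1.9% were called in either direction and 1.25% lower at an unadjusted p under 0.01, and 0.33% were lower with no overlap between the 6 and 6 arrays. Cebpa was the only member among either. The called clusters were 276 lower and 144 higher as deposited, 165 lower and 262 higher with arrays centred on their medians, and 210 lower and 186 higher with quantile-normalized arrays. When the ALA array of passage 7 was left out, the Cebpa difference was -0.24 (unadjusted p = 0.0047). When arrays were centred on their medians it was -0.21 (unadjusted p = 0.0139), which missed the study's threshold.

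The inhibitor differences of Cebpa within a passage were -0.28, -0.28 and -0.19 in passages 6, 7 and 8 with ALA present. With ALA absent they were -0.30, -0.33 and -0.14. All 6 were below 0, and the smaller ones both came from passage 8. The test of whether ALA altered the inhibitor difference gave 0.01 (95% interval -0.30 to 0.31, unadjusted p = 0.954). That interval is wider than the inhibitor difference itself.

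**Figure D2:**
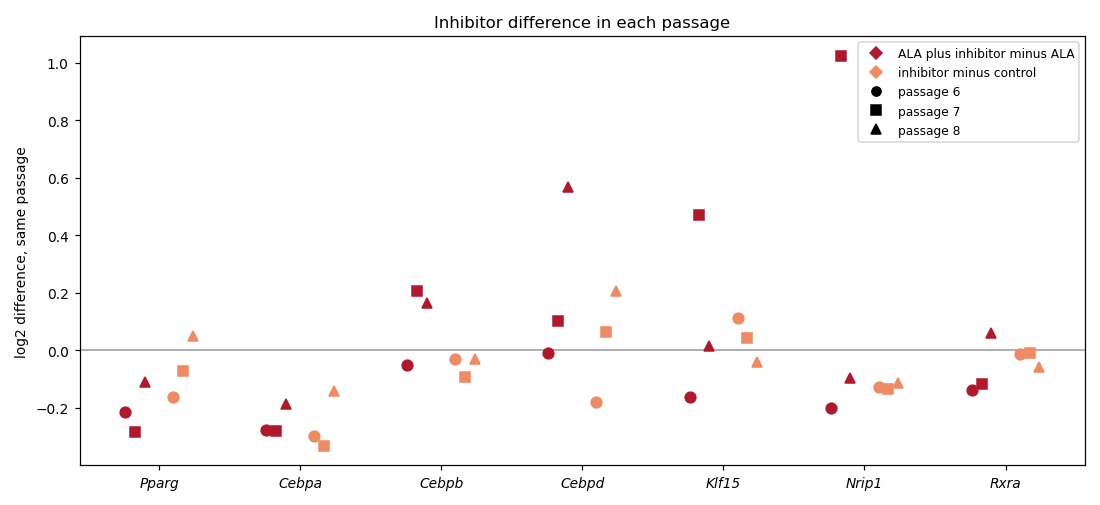
Inhibitor difference (log2, arrays of the same passage) for each gene, with ALA present (ALA plus inhibitor minus ALA) and absent (inhibitor minus control). All 6 points of Cebpa are below 0, and the point of Nrip1 near 1 is passage 7, whose ALA array stood apart.

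Pparg measured 11.61, 11.54 and 11.70 with ALA plus inhibitor in passages 6, 7 and 8, against 11.83, 11.82 and 11.81 with ALA. It measured 11.62, 11.68 and 11.87 with the inhibitor alone, against 11.78, 11.75 and 11.82 in control cells. The first pair of groups did not overlap and the second did, the inhibitor array of passage 8 being the highest of all 12. ALA plus inhibitor against ALA gave -0.20 in Pparg (SE 0.10, unadjusted p = 0.0766, adjusted p = 0.692), and inhibitor against control -0.06 (unadjusted p = 0.569, adjusted p = 0.998). The interaction was -0.14 (95% interval -0.46 to 0.18, unadjusted p = 0.36), so a difference between the settings was not shown.

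Averaged over the settings, with 6 arrays on each side, Pparg was lower by 0.13 (log2 difference -0.13, SE 0.07, 95% interval -0.29 to 0.03). limma gave it an unadjusted p of 0.0995. The exact permutation p was 0.0216, and 0.128 when arrays were centred on their medians, so this p depends on how the arrays are scaled. ALA plus inhibitor was also below control with no overlap (-0.16, unadjusted p = 0.141), as were 5.45% of all clusters.

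Rxra encodes the receptor that pairs with PPARγ. It was the steadiest member, with a SD of 0.0589 over the 12 arrays, and 0.561% of clusters had a smaller one. Its signals were 9.44, 9.50 and 9.51 with ALA plus inhibitor, against 9.57, 9.61 and 9.45 with ALA. They were 9.59, 9.55 and 9.47 with the inhibitor alone, against 9.60, 9.56 and 9.52 in control cells. ALA plus inhibitor lay below control with no overlap, as in 5.45% of all clusters, at a log2 difference of -0.08 (SE 0.10, unadjusted p = 0.441). The inhibitor difference averaged over ALA was -0.05 in Rxra (95% interval -0.20 to 0.11, unadjusted p = 0.53), and closer to 0 when arrays were centred on their medians (-0.0044).

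The relative Rxrg, a member of the same receptor family that muscle and fat can express, had the smallest p of that family. It averaged 5.38 ± 0.27 with ALA plus inhibitor and 5.95 ± 0.09 with ALA, and 5.54 ± 0.09 with the inhibitor and 6.07 ± 0.09 in control cells (SD, n = 3 each). The averaged difference was -0.55 (unadjusted p = 9.09e-05, adjusted p = 0.496). Of the 5 measured genes of the PPAR and RXR family 4 were lower with the inhibitor, with a median of -0.13 against -0.01 over all clusters, and Rxrg alone met the study's threshold.

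Neither early factor was called with the inhibitor. Cebpb measured 7.88, 7.82 and 7.87 with ALA plus inhibitor, against 7.93, 7.62 and 7.71 with ALA. It measured 7.82, 7.66 and 7.69 with the inhibitor alone, against 7.85, 7.76 and 7.72 in control cells. ALA plus inhibitor was above the inhibitor alone with no overlap (0.13, SE 0.11, unadjusted p = 0.255), as were 4.82% of all clusters. Over the settings the inhibitor difference of Cebpb was 0.03 (95% interval -0.14 to 0.20). It lay just below 0 with quantile normalization (-0.00396), with array weights (-0.00672) and without the ALA array of passage 7 (-0.00592).

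Cebpd measured 7.86, 8.04 and 7.62 with ALA plus inhibitor, against 7.87, 7.94 and 7.05 with ALA. It measured 7.75, 7.81 and 7.69 with the inhibitor alone, against 7.93, 7.75 and 7.49 in control cells. Its spread lay between passages, and the averaged inhibitor difference was 0.12 (95% interval -0.20 to 0.45, unadjusted p = 0.419).

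Klf15 was likewise spread by passage, at 8.24, 8.48 and 7.64 with ALA plus inhibitor, against 8.41, 8.01 and 7.63 with ALA. It measured 8.19, 8.15 and 7.78 with the inhibitor alone, against 8.08, 8.11 and 7.82 in control cells. The averaged inhibitor difference of Klf15 was 0.07 (95% interval -0.28 to 0.42, unadjusted p = 0.66).

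Nrip1 measured 8.35, 8.12 and 8.47 with ALA plus inhibitor, against 8.55, 7.10 and 8.57 with ALA. It measured 8.22, 8.35 and 8.63 with the inhibitor alone, against 8.34, 8.49 and 8.75 in control cells. The value of 7.10 came from the ALA array of passage 7, and the next lowest of the 12 was 8.12. With that array the ALA plus inhibitor arm was above ALA by 0.24 (unadjusted p = 0.45), and without it the difference was -0.25 (unadjusted p = 0.157).

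ALA by itself was compared with control. None of the 7 genes was called, and the differences of Pparg and Cebpa were under 0.05. Between ALA and control the largest difference was that of Nrip1, -0.45 (SE 0.31, unadjusted p = 0.17, adjusted p = 1), which was 0.04 without the ALA array of passage 7. The next was Cebpd at -0.10 (unadjusted p = 0.63). Pparg differed by 0.04 (95% interval -0.19 to 0.27) and Cebpa by 0.02 (95% interval -0.19 to 0.24). No member was called by the study's threshold, which 0.525% of all clusters met. The interval of Cebpa does not reach down to the -0.25 seen in that gene with the inhibitor. In several other members the intervals do not exclude differences of the size seen with the inhibitor, so the groups are not shown to be alike. These comparisons share arrays: ALA stands in that with control and in that with ALA plus inhibitor, and control stands in 3 of them.

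Genes that PPARγ and C/EBPα are known to activate were read beside their regulators. Of 25 measured of 29 listed, 18 were lower and 7 higher with the inhibitor averaged over ALA, with a median of -0.10, against -0.01 and 53.3% lower for all clusters. The 25 include Pparg and Cebpa themselves, both lower, so the counts are not separate from these regulators. At the study's threshold 4 were lower and 0 higher. These were Cebpa itself, Pck1 (-1.07), which makes the glycerol backbone of stored fat, Aqp7 (-0.63), a glycerol channel, and Mgll (-0.50), the last lipase of fat breakdown. Pck1 averaged 8.32 ± 0.42 with ALA plus inhibitor and 9.49 ± 0.36 with ALA, and 8.36 ± 0.82 with the inhibitor and 9.32 ± 0.30 in control cells (SD, n = 3 each). With arrays centred on their medians 14 of the 25 were lower. None of the 25 passed the adjusted threshold, each of those 4 having an adjusted p of 0.496. With passage as a replicate block 8 clusters passed it over the whole array, among them Pck1 (adjusted p = 0.037), and no member of the network did (Cebpa adjusted p = 0.25).

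The counts of the other regulators depended in part on scaling. Of the regulators that restrain adipogenesis 16 of 21 were lower, with a median of -0.09, and 13 of 21 with arrays centred on their medians. Dlk1, the preadipocyte factor that cells lose on differentiating, met the study's threshold (-0.31, unadjusted p = 0.00476, adjusted p = 0.496). Of 16 other promoters of adipogenesis 12 were lower (median -0.07), or 9 with that centring, led by Ebf1 (-0.20, unadjusted p = 0.0177), an early B-cell factor that acts upstream of Pparg. Of 14 nuclear receptor coregulators 10 were lower (median -0.05), or 7 with that centring, and the coactivator gene Ncoa3 was higher (0.24, unadjusted p = 0.027). Among 17 Krüppel-like factors 11 were higher and 6 lower, with a median of 0.02 and none at the study's threshold, but 8 higher and 9 lower without the ALA array of passage 7.

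Markers of cell state were counted as well. All measured adipocyte markers but Car3 are also on the list of PPARγ and C/EBPα targets, so those counts are not separate. Dlk1, Sox9 and Twist2 are on both the preadipocyte list and that of the restraining regulators. Preadipocyte and fibroblast markers were lower for 11 of 11 genes with the inhibitor (median -0.20), and adipocyte markers for 9 of 11 (median -0.10), beside 53.3% of all clusters. With arrays centred on their medians these counts were 11 of 11 and 7 of 11. The mean signal of the preadipocyte list was between 9.04 and 9.38 on arrays with the inhibitor and between 9.24 and 9.53 on those without it. That of the adipocyte list was 10.98 to 11.35 with the inhibitor and 11.21 to 11.53 without it. The part of cell composition in the Cebpa difference was not tested.

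**Figure D3:**
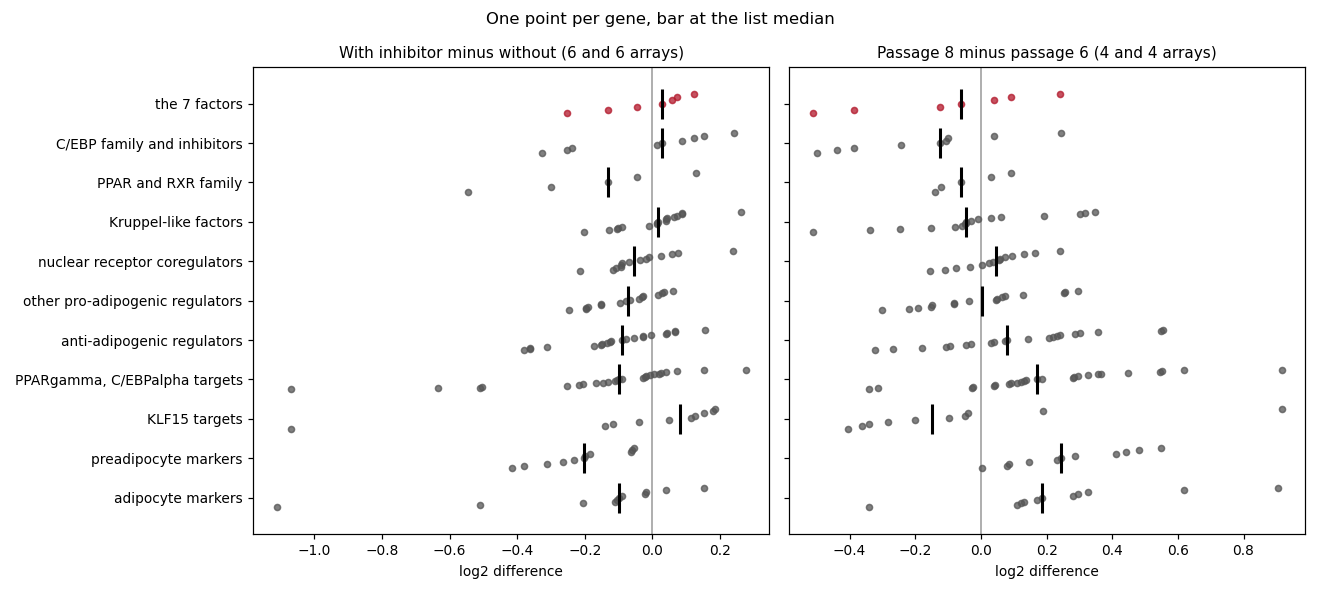
Log2 difference of each measured gene, 1 point per gene and a bar at the median, for the 7 factors (red) and the listed groups. On the left are arrays with the inhibitor minus those without it, where preadipocyte markers all lie below 0, and on the right passage 8 minus passage 6, where they all lie at or above 0.

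Passage was the other axis of the design. It is not replicated, since a passage has 1 array per treatment. The p-values measure the spread left once the means of treatments and passages are fitted. Between passages 8 and 6 the largest differences among the members were those of Klf15 and Cebpd, both lower in passage 8. Between passages 8 and 7 the largest was that of Nrip1 with the outlying ALA array, and that of Klf15 without it. Klf15 and Cebpd were lowest in passage 8 in all 4 treatments, and Nrip1 was highest there in all 4. The share of all clusters with such an order was not counted, so it is not shown to be particular to these genes. Pparg, Cebpa, Cebpb and Rxra differed less.

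Klf15 lies on chromosome 6 (chr6:90461043-90491803, GRCm38.p6). Its window, chr6:90462326-90462575 on the plus strand, is printed because it held the most kinds of motif among the windows shown.
Klf15: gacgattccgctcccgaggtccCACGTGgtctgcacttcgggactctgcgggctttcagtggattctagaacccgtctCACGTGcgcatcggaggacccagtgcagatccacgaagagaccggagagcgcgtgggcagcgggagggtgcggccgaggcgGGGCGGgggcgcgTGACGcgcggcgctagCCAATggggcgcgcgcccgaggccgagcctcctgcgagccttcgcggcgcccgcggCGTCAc
It held 2 E-boxes (172 and 228 bases before the start, in 6.02% of windows), 2 cAMP element cores (6 and 78 bases, 17.8%), 1 GC box (91 bases, 32.7%) and 1 CCAAT box (62 bases, 33.8%). No glucocorticoid receptor core was found in these letters, and 16.1% of windows have one.

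Klf15 averaged 8.23 ± 0.14 in passage 6, 8.19 ± 0.20 in passage 7 and 7.72 ± 0.10 in passage 8 (SD, n = 4 each). The 4 arrays of passage 8 lay between 7.63 and 7.82, below the 8.08 to 8.41 of passage 6 and the 8.01 to 8.48 of passage 7. The difference between passage 8 and passage 6 was -0.51 (SE 0.12, 95% interval -0.78 to -0.24, unadjusted p = 0.00166, adjusted p = 0.0683), a signal of 0.701 of that in passage 6. Against passage 7 it was -0.47 (unadjusted p = 0.00298, adjusted p = 0.0963), and -0.54 without the ALA array of passage 7 (unadjusted p = 0.00203, adjusted p = 0.125). Of 18 alternative fits for passage 8 against 6, 5 gave Klf15 an adjusted p under 0.05. These ran from 0.00855 with an intensity trend to 0.0423 with array weights. Median centring gave 0.0943. No fit that left out 1 array passed the adjusted threshold, and the lowest adjusted p among those fits was 0.0527. Passage accounted for 75.4% of the variance of Klf15 over the 12 arrays and treatment for 2.94%.

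Cebpd averaged 7.85 ± 0.08, 7.88 ± 0.13 and 7.46 ± 0.29 in passages 6, 7 and 8. Passage 8 was below passage 6 by 0.39 (log2 difference -0.39, SE 0.13, unadjusted p = 0.0143, adjusted p = 0.197) and below passage 7 by 0.42 (log2 difference -0.42, unadjusted p = 0.00917, adjusted p = 0.136), again with no overlap. Without the ALA array of passage 7 the difference from passage 7 was -0.34 (unadjusted p = 0.0361), which missed the study's threshold. The low ALA array of passage 8 (7.05) carried part of this, and without it the difference from passage 6 was -0.24 (unadjusted p = 0.0555). Lower values without overlap were found for 5.35% of all clusters between passages 8 and 6, and for 4.31% between passages 8 and 7. At an unadjusted p under 0.01, 2.37% and 3.03% were called lower.

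Nrip1 averaged 8.37 ± 0.14, 8.01 ± 0.63 and 8.61 ± 0.11 in passages 6, 7 and 8. Passage 8 was above passage 7 by 0.59 (unadjusted p = 0.0279, adjusted p = 0.2) with the outlying ALA array included, and by 0.26 without it (unadjusted p = 0.0373, adjusted p = 0.316), a fit chosen after seeing the data. It was above passage 6 by 0.24 (unadjusted p = 0.319), and by the same 0.24 without that array (unadjusted p = 0.0329). Cebpa was the member least tied to passage, at 1.62% of its variance, with 87.9% going with treatment.

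**Figure D4:**
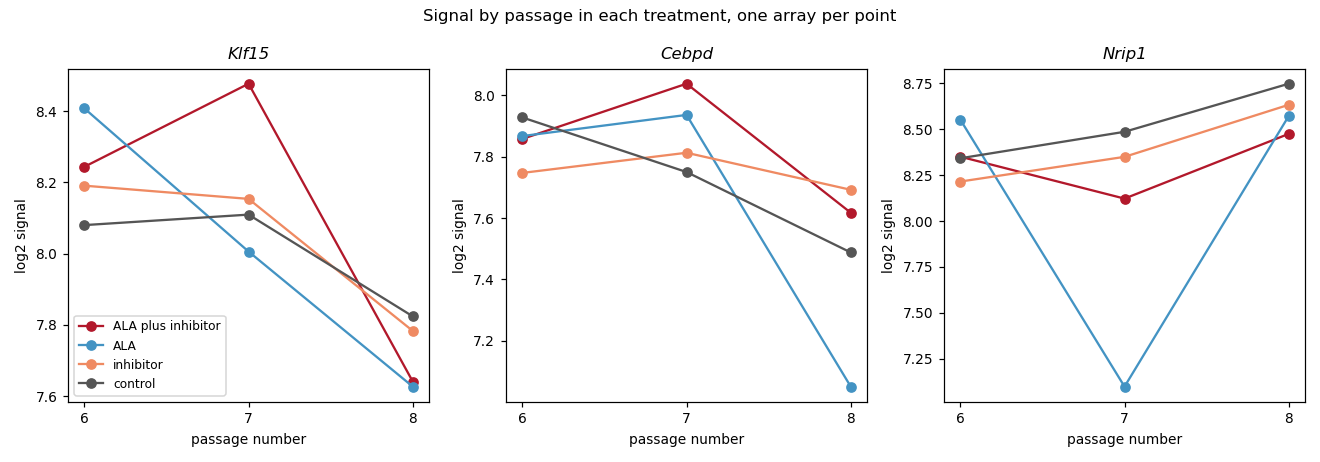
Log2 signal against passage number for Klf15, Cebpd and Nrip1, 1 line per treatment and 1 array per point. Klf15 is lowest in passage 8 in all 4 treatments, and the dip of Nrip1 to 7.10 is the ALA array of passage 7.

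Genes downstream of these factors differed in direction between lists in passage 8. Of 25 PPARγ and C/EBPα targets 21 were higher than in passage 6 (median 0.17, against -0.01 over all clusters). The 25 include Pparg and Cebpa themselves, both higher. By the adjusted threshold 4 rose and none fell, beside 1.31% and 0.602% of all clusters. They were Pck1 (0.92, adjusted p = 0.0222), Mgll (0.55, adjusted p = 0.0239), the hormone gene Lep (0.62, adjusted p = 0.0377) and Gpd1 (0.36, adjusted p = 0.0492), which links glycolysis to fat synthesis. Of 10 genes listed as KLF15 targets 8 were lower (median -0.15). Bcat2, which starts the breakdown of branched-chain amino acids, fell (-0.40, adjusted p = 0.0264), and Pck1, which is on both lists, rose.

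Other members of the families differed too. Ddit3, a C/EBP relative that blocks its partners, fell in passage 8 (-0.50, adjusted p = 0.0288). Klf9, a glucocorticoid-induced relative of Klf15, was lower (-0.34, unadjusted p = 0.00314, adjusted p = 0.094). Klf6, which promotes adipogenesis, was higher (0.32, unadjusted p = 0.00693, adjusted p = 0.139), as was Klf2, which restrains it (0.30, unadjusted p = 0.0137, adjusted p = 0.194). Of the 17 Krüppel-like factors 11 were lower and 6 higher (median -0.04). Of 16 glucocorticoid-responsive genes 9 were lower and 7 higher (median -0.12), and Tsc22d3, a well-known member of that list, was higher (0.27, unadjusted p = 0.0143). That list holds Klf15, Cebpd and Cebpb themselves, all lower, so its count is not separate from theirs. Of all clusters 52.9% were lower. Among the restraining regulators Sox9 (0.55, adjusted p = 0.0378) and Zfp521 (0.55, adjusted p = 0.0477) rose. Preadipocyte markers were higher for 11 of 11 genes and adipocyte markers for 10 of 11. All of these adipocyte markers but Car3 are also on the list of PPARγ and C/EBPα targets. The mean of the preadipocyte list was 9.37 to 9.53 in passage 8 and 9.04 to 9.31 in passage 6, and what it contributed to the Klf15 and Cebpd differences was not tested.

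The members were also set against each other over the 12 arrays, as 21 pairs. Cebpd and Klf15 varied together (Pearson r = 0.764, permutation p = 0.001, adjusted p = 0.021, Spearman rho = 0.706, permutation p = 0.013, adjusted p = 0.091). Without the 2 arrays farthest from the median of Cebpd r was 0.738. With passage means removed it was 0.338, and over the 8 arrays of passages 6 and 7 it was 0.36, so the relation did not hold at that strength within passages. Both genes were lower in passage 8, and the permutation moved arrays across passages. Its p therefore does not describe a relation within passages. Pparg and Cebpa gave r = 0.574 on the 6 arrays with the inhibitor (exact permutation p = 0.233) and 0.447 on the 6 without it (exact permutation p = 0.343). Since Cebpa falls into separate ranges with and without the inhibitor, no pooled value is given for that pair.

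The genes most like each member over the 12 arrays, among 10042 compared and as a description only, were found by Pearson r. They were Nkrf (0.97), Rac1 (0.924) and B3galt2 (0.916) for Cebpa, where r over all 12 arrays includes the step between its ranges with and without the inhibitor. Within the 6 arrays with the inhibitor r was 0.905, 0.495 and 0.877 for these 3 genes, and within the 6 without it 0.411, 0.866 and -0.0573. Those nearest to Pparg were Hcar1 (0.941), Ttyh2 (0.93) and Igf1 (0.911). Within the 6 arrays with the inhibitor r was 0.944, 0.942 and 0.85 for these 3, and within the 6 without it 0.69, 0.199 and 0.661. Pparg and these 3 genes were each lowest on the ALA plus inhibitor array of passage 7. For Klf15 they were Ube2b (0.912), Itga7 (0.911) and Abcc1 (0.902), and for Cebpd Hpcal1 (0.91), Tcf20 (0.91) and Ghrh (0.903). Cebpd and these 3 genes were each lowest on the ALA array of passage 8, and without it r was 0.764, 0.831 and 0.771. Those nearest to Cebpb were Alg12 (0.932), Nudt22 (0.892) and Ndufa5 (0.878). Cebpb and these 3 were each lowest on the ALA array of passage 7, and without it r was 0.909, 0.85 and 0.831. Nearest to Rxra were Dnajc28 (0.879), Ggt7 (0.877) and Efnb3 (0.874). For Nrip1, Fuca1 (0.969), Cdk8 (0.964) and Otud4 (0.964) were nearest, and each of the 3 was also lowest on the ALA array of passage 7, without which r was 0.818, 0.769 and 0.77.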

How the data were processed

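RNA of 12 cultures was hybridised to whole-transcript arrays after biotin labelling from 100 ng of total RNA. Per the submitters' processing notes, the authors used RMA (background correction, quantile normalization and probe summary). The deposited values are log2 signals per transcript cluster. The version of RMA's software is not stated. Arrays give no read depth, so the number of arrays limits the precision, and nothing in the labels says whether passages were grown and processed on separate days. The samples of a group are separate passages of 1 cell line, so p-values measure the spread between these cultures.

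The members and the gene lists were chosen with earlier results of these data known, so their p-values are not independent evidence. Genes were named by the array annotation (19480 names over 22104 clusters, with 2595 clusters unnamed), taking the cluster with the highest mean. limma 3.58.1 in R 4.3.3 was fitted to all 12 arrays with 1 coefficient per treatment (8 residual degrees of freedom), and Benjamini-Hochberg adjustment ran over all clusters. Averages over ALA, the interaction and passage contrasts (treatment plus passage, 6 residual degrees of freedom) used the same tools. Exact permutation tests covered 6 against 6 arrays, since 3 against 3 cannot go below p = 0.1. The fit was tested on simulated data. Named were all 7 members, up to 4 genes with the smallest p of each list in each comparison described, and the 3 genes most like each member. List genes without a named cluster, such as Ppard, Srebf1, Ncor1 and Cd68, were not analysed here.

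By the rule that every passage correlates above 0.1, passage numbers paired the arrays in 2 comparisons. Same-passage deviations from the group means correlated at 0.163, 0.163 and 0.235 for ALA plus inhibitor against ALA, and at 0.121, 0.128 and 0.227 for ALA plus inhibitor against control. For the other comparisons at least 1 passage was under 0.1 (0.013 to 0.0922). The p-values printed above for the members in the 2 paired comparisons come from the fit without a passage block. With the block, limma's unadjusted p for Cebpa was 0.0217 for ALA plus inhibitor against ALA and 0.0326 against control. For Pparg these were 0.053 and 0.105. Alternatives were the passage block, array weights, an intensity trend, median centring, quantile normalization, a filter on the dimmest 30% of clusters, fitting only the groups compared, and leaving out arrays or passages. Promoter windows and positions are RefSeq's for GRCm38.p6.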

Additional observations from a re-analysis of the deposited data

Results flagged for a closer look

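Within each gene, 49 groups of arrays were checked for a single array far from the rest, by Dixon's criterion, and 4 stood apart. Chance flags about 1 in 20 groups, and the groups overlap. Nrip1 was 7.10 on the ALA array of passage 7, against 8.34 for the nearest of the 6 arrays without the inhibitor and 8.12 for the nearest of the 6 arrays with ALA, which gave 2 of the 4. In the 4 arrays of passage 8, Cebpb was 7.87 with ALA plus inhibitor and 7.72 on the nearest other array. In the 4 arrays of passage 6, Rxra was 9.44 with ALA plus inhibitor and 9.57 on the nearest other array. The ALA array of passage 7 also had the lowest correlations with the other arrays over all clusters (0.976 to 0.987), and its part in the Nrip1 value was not tested.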

How the results depend on the processing

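Cebpa was lower with the inhibitor, averaged over ALA, in all 21 alternatives, between -0.30 and -0.21, with unadjusted p from 0.000409 to 0.0503. The number of members at an unadjusted p under 0.01 there was 1, and 0 with arrays centred on their medians. It ranged from 0 to 1 over fits without 1 array or passage, being 0 without the inhibitor array of passage 7 (unadjusted p = 0.0107) and without passage 6, 7 or 8 (0.0503, 0.044 and 0.0117), where fewer arrays were fitted. For inhibitor against control that number was 0 as planned and 1 with array weights or an intensity trend, and for ALA plus inhibitor against ALA 0 as planned and 1 with an intensity trend, in each case Cebpa. With passage as a replicate block no member's call changed. With the block 8 clusters passed an adjusted p of 0.05 for the inhibitor averaged over ALA, against 0 without it, and leaving out single arrays gave 0 to 1. At an unadjusted p under 0.01 the block gave 750 clusters against 420, 561 against 325 for ALA plus inhibitor against ALA, 333 against 183 for ALA plus inhibitor against control, 322 against 189 for inhibitor against control and 186 against 116 for ALA against control.

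For passage 8 against passage 6, 423 clusters passed the adjusted threshold, and 690 did with array weights, 1163 with an intensity trend, 719 without the dimmest 30% of clusters and 140 to 593 when 1 array was left out. Members at an unadjusted p under 0.01 there were 1 as planned and 2 (Klf15 and Cebpd) without a treatment term, with array weights, with an intensity trend or without the inhibitor array of passage 8, the range without 1 array being 1 to 2. Klf15 kept its sign and an unadjusted p under 0.01 in all 18 alternatives. Member differences changed sign under some settings, from 1 of 126 values for passage 8 against 6 to 16 of 112 for ALA against control. They were not only small ones. The Nrip1 difference of ALA against control (-0.45) changed sign in 2 of 16 alternatives. That of ALA plus inhibitor against ALA (0.24) did so in 3 of 16. Each member has 1 cluster, so another cluster could not be tried, and averages over ALA could not be fitted on 2 groups alone. The causes of these shifts were not tested.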

Other observations

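Markers of muscle were lower in passage 8 than in passage 6 for 6 of 8 genes (median -0.23). Des, the muscle intermediate filament, fell (-0.68, limma adjusted p = 0.0104), and so did Myh3, an embryonic myosin (-0.60, adjusted p = 0.0379). Among the adipocyte markers Car3, a carbonic anhydrase abundant in fat, rose (0.90, adjusted p = 0.0173), and among the fibroblast markers Col1a1, a collagen chain, rose (0.48, adjusted p = 0.0159). With the inhibitor averaged over ALA, 5 of 7 macrophage markers were lower (median -0.08), 4 of 7 endothelial markers were higher (median 0.05), and 4 of 7 osteoblast and chondrocyte markers were higher (median 0.18), against a median of -0.01 over all clusters. Without the ALA array of passage 7 these counts were 4, 5 and 4 of 7, and the macrophage count was 4 with quantile normalization too. In the C/EBP family 6 of 9 genes were higher (median 0.03), 5 without that array and 4 with quantile normalization (median -0.00396), and Cebpa alone met an unadjusted p under 0.01. In that comparison Car3 was lower (-1.11, unadjusted p = 0.00102, adjusted p = 0.496), and with passage as a replicate block it passed the adjusted threshold (adjusted p = 0.0229).

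The 21 pairs of members were also computed within the 6 arrays with the inhibitor and within the 6 without it, adjusting over the 21 pairs of each set, and Cebpd and Rxra gave the smallest p. On the 6 arrays without the inhibitor r was 0.988 (exact permutation p = 0.00139, adjusted p = 0.0292), with a Spearman rho of 1 (exact permutation p = 0.00278). On the 6 with it r was -0.186 (exact permutation p = 0.742). Over all 12 arrays r was 0.442 (permutation p = 0.147, adjusted p = 0.514), with passage means removed 0.0761, and over the 8 arrays of passages 6 and 7 -0.17. These values pool arrays with and without the inhibitor, so they do not show whether the relation on the 6 without it held within passages. The pair was chosen after its values were seen, and the difference between the sets was not tested. The adjusted p of 0.0292 covers the 21 pairs of 1 set, not the choice of the smallest p over both sets.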
